A study of Homo sapiens with 8 samples.

Results

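The genes described here are 36 genes of the integrated stress response and of tRNA charging in the cytosol, named by symbol and looked up in the tables of read counts. All 36 stood among the 36779 genes listed and among the 17877 genes tested. They were 6 transcription and feedback factors (ATF4, ATF5, DDIT3, TRIB3, CEBPB, CEBPG), 5 stress and redox targets of ATF4 (DDIT4, CHAC1, SESN2, VLDLR, STC2), 9 enzymes of amino acid and folate metabolism (ASNS, PSAT1, PHGDH, PSPH, SHMT2, MTHFD2, ALDH1L2, CTH, CBS), 4 amino acid transporter genes (SLC7A1, SLC7A5, SLC3A2, SLC38A2) and 12 cytosolic tRNA synthetases under older symbols (AARS, CARS, EPRS, GARS, IARS, LARS, MARS, NARS, SARS, TARS, VARS, YARS).

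The study measured total RNA of PC3 and DU145 cells, established lines of human prostate cancer grown from a bone and a brain metastasis. Cells carried a plasmid for circ0003553 or circ0004592, which are circular RNAs (circRNAs), or a negative control plasmid. Each line gave 4 libraries: 1 with circ0003553, 1 with circ0004592 and 1 control for each circRNA, so that a line has 2 controls and each circRNA 1 library per line. All 8 libraries were transfected, no untransfected cells were analysed here, and the time and dose of transfection are not given in the sources used here. Nothing in the labels says that libraries came from separate cultures, so the p-values measure the spread between these libraries, which may be technical.

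In the integrated stress response, kinases that sense amino acid shortage, double-stranded RNA, faulty folding in the endoplasmic reticulum or heme shortage phosphorylate the translation factor eIF2. General protein synthesis then drops while the messenger RNA of ATF4 is translated more. ATF4 pairs with C/EBP proteins on DNA elements called CARE and switches on genes for amino acid synthesis, amino acid import and tRNA charging, together with the feedback genes DDIT3 and TRIB3. The level of ATF4 messenger RNA therefore need not follow the level of its protein, which was not measured here. tRNA synthetases attach amino acids to their tRNAs.

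The CARE core was searched in the promoters of the members because ATF4 is known to act through it. The letters were TGATGNAA, on either strand (TTNCATCA on the other), in RefSeq windows of GRCh38.p14 that span 250 bases before and 50 after a gene's start. A window was found for 30 of the 36 members, and 12 of these (40.0%) held the core: CEBPG, CHAC1, ASNS, SLC7A1, SLC3A2, AARS, CARS, GARS, IARS, MARS, NARS and TARS. Among the synthetases, 7 of the 9 with a window held it, and among the other members 5 of 21. Over all genes, 3.62% of 35116 windows and 4.46% of 27305 genes held it. PSPH, SHMT2, ALDH1L2, LARS, VARS and YARS had no entry in the table. Starts here are those of RefSeq and can differ from the gene spans of the deposited tables printed further on: the CHAC1 window lies wholly inside the deposited span of CHAC1, the ASNS window crosses the deposited start, and the MARS match lies well inside the deposited span of MARS. No match overlapped another. A match is a description of the letters, not a measured binding site.

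The 250 bases before the RefSeq start are shown for CHAC1, whose messenger RNA was lower with both circRNAs in PC3, and for ASNS, which was not called in PC3, with the core in capitals.
CHAC1 (chr15:40953221-40953470, plus strand): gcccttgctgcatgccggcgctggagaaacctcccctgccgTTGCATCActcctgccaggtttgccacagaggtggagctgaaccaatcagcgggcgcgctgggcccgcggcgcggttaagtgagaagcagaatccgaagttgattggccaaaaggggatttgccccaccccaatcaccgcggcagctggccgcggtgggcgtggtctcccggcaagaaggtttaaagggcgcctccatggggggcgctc
ASNS (chr7:97872409-97872658, minus strand): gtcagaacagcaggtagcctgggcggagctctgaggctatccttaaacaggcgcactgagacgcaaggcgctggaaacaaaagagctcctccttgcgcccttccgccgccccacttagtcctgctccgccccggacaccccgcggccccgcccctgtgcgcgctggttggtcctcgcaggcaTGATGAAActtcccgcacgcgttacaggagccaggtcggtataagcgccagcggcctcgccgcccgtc

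The cores of 7 synthetases and of CEBPG are shown in windows of 30 bases, read along the strand of the gene, to let genes that fell in PC3 (AARS, GARS, IARS, CEBPG) be set beside TARS, which rose, and beside CARS, MARS and NARS, which were not called there.
AARS (chr16:70289675-70289704, minus strand): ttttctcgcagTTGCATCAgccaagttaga
GARS (chr7:30594834-30594863, plus strand): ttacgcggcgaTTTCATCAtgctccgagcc
IARS (chr9:92293692-92293721, minus strand): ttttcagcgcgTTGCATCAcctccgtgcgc
CEBPG (chr19:33374060-33374089, plus strand): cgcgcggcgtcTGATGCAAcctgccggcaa
TARS (chr5:33440956-33440985, plus strand): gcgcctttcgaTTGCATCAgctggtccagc
CARS (chr11:3057407-3057436, minus strand): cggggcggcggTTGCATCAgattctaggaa
MARS (chr12:57488053-57488082, plus strand): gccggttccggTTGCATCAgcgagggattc
NARS (chr18:57621804-57621833, minus strand): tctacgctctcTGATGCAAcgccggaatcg

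Counted from the RefSeq start, with no base 0, the core began at base -209 in CHAC1, -187 in AARS, -68 in ASNS, -42 in CEBPG, -33 in GARS and -13 in IARS. It reached over the start, from base -4 in MARS and -2 in CARS, and lay after the start, from base 3 in TARS and 15 in NARS. The letters TTGCATCA stood in CHAC1, AARS, CARS, IARS, MARS and TARS alike. CEBPG and NARS held TGATGCAA, which reads TTGCATCA on the other strand.

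Total counts per library ran from 33444940 to 49926342, and the lowest count of any member was 44 (VLDLR, PC3 with circ0003553). Among counts of 1 to 20, 64.9% to 66.1% were even, a pattern that arises where the 2 reads of a fragment are counted separately, so counts may overstate the number of fragments. The controls of a line lay close together for the members: the median absolute log2 difference was 0.055 in PC3 and 0.038 in DU145, and the highest was 0.44 and 0.23, for ALDH1L2 in both lines. Levels below are in CPM, the count scaled to the library's normalised total, and a gene is called where the adjusted p of edgeR's quasi-likelihood test is under 0.05. The labels name RCAN3 for the arm of circ0003553 and STK3 for that of circ0004592. RCAN3 stood at 44.0 against 33.2 CPM in PC3 and 37.1 against 20.9 CPM in DU145 with circ0003553 and its own control. The edgeR test against both controls of the line gave adjusted p = 3.13e-04 and 9.64e-07. STK3 stood at 19.3 against 9.12 CPM in PC3 and 34.1 against 26.1 CPM in DU145 with circ0004592 and its own control. Against both controls of the line, the edgeR adjusted p of STK3 was 2.74e-08 and 0.0551. RCAN3 was also called lower with circ0004592 in PC3 (log2 change of -0.42, adjusted p = 0.00316), so its level did not move with its own arm alone. These counts per gene do not separate a circular RNA from the linear message. The sum of 5 epithelial markers was 596 to 653 CPM in PC3 and 2921 to 3842 CPM in DU145. CLDN4 of that list went the other way, at 64.8 and 58.2 CPM in the PC3 controls and 2.80 and 2.80 CPM in the DU145 controls. The 4 leukocyte markers summed to at most 0.792 CPM. Fibroblast markers, COL1A1 among them, summed to 23.8 to 30.8 CPM in PC3 and 1.81 to 2.80 CPM in DU145. Endothelial markers summed to 5.44 to 6.16 CPM in PC3 and 0.399 to 0.682 CPM in DU145.

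With control plasmid, the members were first compared by level. Per length of gene (RPKM, reads per length of gene and library total), ATF4 (chromosome 22, 39519695 to 39522685, plus strand, hg38), the central transcription factor, had the highest level of the 36 in both lines, at a mean of 165 RPKM in PC3 and 185 RPKM in DU145 (2 libraries each). The synthetases SARS, NARS, AARS and GARS followed near the top in PC3 at 114, 113, 96.8 and 94.2 RPKM. DDIT3, which encodes the pro-apoptotic factor CHOP, was the fourth highest in PC3 at 111 RPKM and was at 44.3 RPKM in DU145. The lowest levels in PC3 were 0.246 RPKM for VLDLR, a lipoprotein receptor, and 0.421 RPKM for ALDH1L2, a mitochondrial folate enzyme. In DU145 the lowest was CTH, at 2.71 RPKM. Neighbours in this order often lay closer together than the controls themselves, such as SARS and NARS in PC3, so their order is not resolved.

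Between the controls, 8 of 36 members were higher in PC3 and 24 lower, against 41.6% and 41.1% of all 17877 tested genes called higher and lower, so most genes of any kind differed between the lines. Of the factors, ATF5, DDIT3, TRIB3 and CEBPB were higher in PC3, ATF5 by 1.43 ± 0.062 (log2, SE; edgeR adjusted p = 2.21e-16) and DDIT3 by 1.32 ± 0.063 (log2, SE; edgeR adjusted p = 1.67e-15). The enzymes were mostly lower: PSAT1, of serine synthesis, stood at 56.7 and 55.2 CPM in PC3 and 236 and 235 CPM in DU145, 4.20-fold higher in DU145. CBS, which makes cystathionine from homocysteine, was 4.71-fold higher in DU145, and DDIT4, an inhibitor of mTORC1, 3.49-fold. VLDLR differed most, at 2.45 and 2.12 CPM in PC3 and 27.5 and 27.3 CPM in DU145, a ratio of 12.02. SLC38A2, a carrier of small neutral amino acids, went the other way and was 2.94-fold higher in PC3. Of the 12 synthetases, NARS and SARS were higher in PC3 and the other 10 lower, with log2 differences of -1.54 for VARS and -1.42 for TARS. CHAC1, PSPH, SHMT2 and CTH passed the threshold in neither direction.

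**Figure D1:**
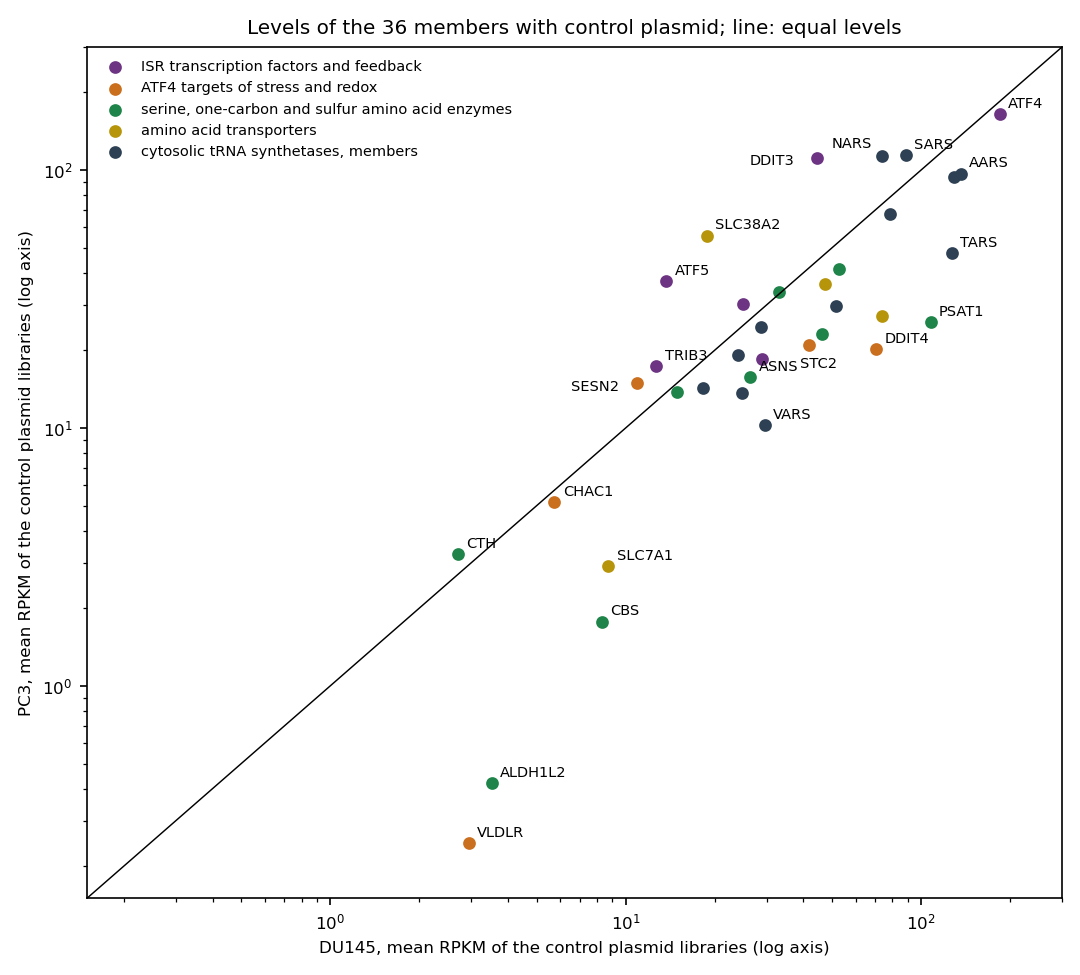
Mean RPKM of the 2 control plasmid libraries in DU145 (x axis) and PC3 (y axis), both log axes, 1 point per gene, coloured by role, with a line of equal levels. ATF4 lies highest in both lines, ATF5, DDIT3 and SLC38A2 lie above the line, and PSAT1, DDIT4, CBS, VLDLR and ALDH1L2 lie below it.

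In PC3 with circ0003553, 21 of 36 members were lower and 2 higher, beside 14.5% and 14.3% of all tested genes. With circ0004592, 14 were lower and 3 higher, beside 13.5% and 12.3% of all tested genes. The 14 that fell with circ0004592 were all among the 21. In bulk RNA, fewer cells of a type and less RNA per cell cannot be told apart. The median log2 change of the members was -0.24 and -0.15, and that of all tested genes -0.032 and -0.029. These comparisons share both controls of the line, so they are not independent of each other. Against the control of its own arm alone, which is not shared, 26 members were lower with both circRNAs, 5 higher with both and 5 opposite, where 40.4%, 33.7% and 24.7% of all tested genes were in these classes. Both circRNA libraries lay below both controls for 25 of 36 members (34.3% of all tested genes) and above both for 5 (28.6%).

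**Figure D2:**
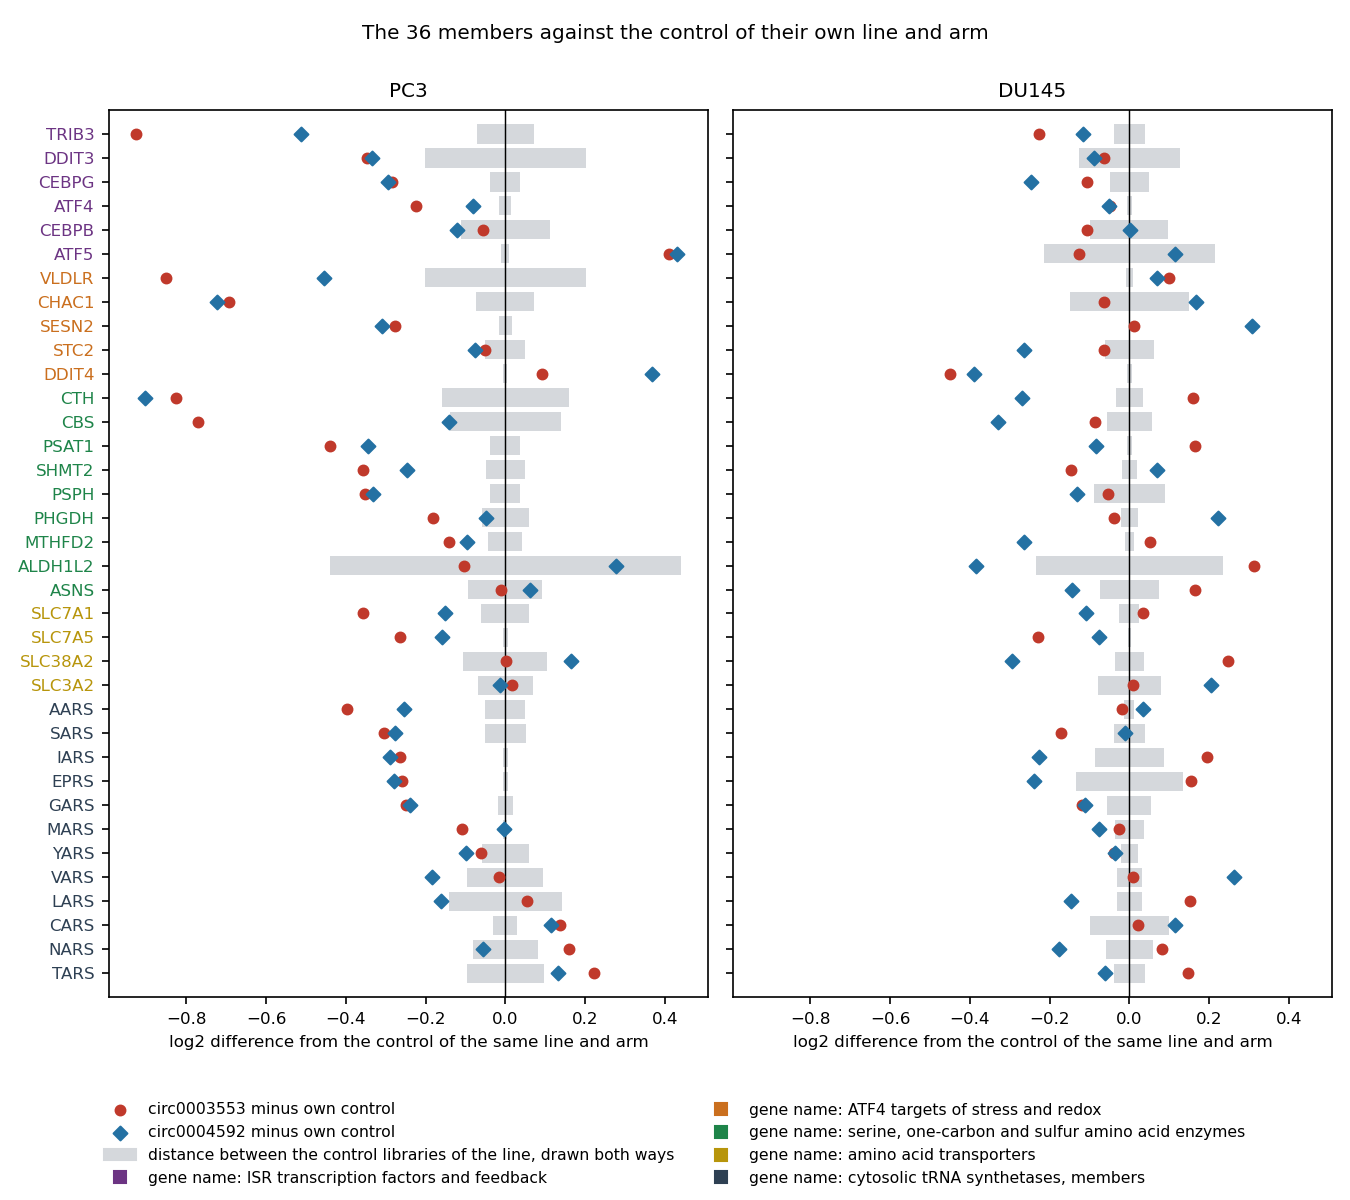
Log2 difference (x axis) of each circRNA library from its matched control (same line, same arm), 1 line of points per gene, in PC3 and DU145, with no test. Grey bars span the distance between the line's controls on either side of 0. In PC3 most points of both circRNAs lie left of 0 and beyond the grey bars. Points of TRIB3, VLDLR, CHAC1 and CTH, and that of CBS with circ0003553, lie farthest. In DU145 the points of a gene often lie on opposite sides.

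Among the transcription and feedback factors, TRIB3, DDIT3 and CEBPG fell with both circRNAs in PC3 and ATF5 rose. TRIB3 (chromosome 20, 362835 to 397559, plus strand), a pseudokinase that dampens ATF4 and DDIT3, stood at 60.7 and 57.7 CPM in the PC3 controls, 31.9 CPM with circ0003553 and 40.5 CPM with circ0004592. Both circRNA libraries lay below both controls, and the change was -0.89 ± 0.080 (log2, SE; edgeR adjusted p = 4.62e-09) in the circ0003553 library and -0.55 ± 0.078 (log2, SE; edgeR adjusted p = 7.03e-06) in that of circ0004592. DDIT3 (chromosome 12, 57516588 to 57520517, minus strand) stood at 129.9 and 149 CPM in the PC3 controls, 102 CPM with circ0003553 and 119 CPM with circ0004592. Its controls were farther apart than those of TRIB3, yet both circRNA libraries again lay below them, with -0.45 ± 0.077 (log2, SE; edgeR adjusted p = 7.14e-05) and -0.24 ± 0.076 (log2, SE; edgeR adjusted p = 0.0234). ATF4 itself was at 409 and 413 CPM in the PC3 controls, 350.1 CPM with circ0003553 and 390.4 CPM with circ0004592. It fell with circ0003553, with a change of -0.23 ± 0.054 (log2, SE; edgeR adjusted p = 0.00200). With circ0004592 its log2 change was -0.075, not past the threshold.

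ATF5 (chromosome 19, 49928702 to 49933935, plus strand), a relative of ATF4 that acts in mitochondrial stress, was at 109 and 109 CPM in the PC3 controls, 145 CPM with circ0003553 and 146 CPM with circ0004592. It was the highest riser of the 36 with either circRNA, 0.42 ± 0.070 (log2, SE; edgeR adjusted p = 6.54e-05) and 0.43 ± 0.070 (log2, SE; edgeR adjusted p = 5.39e-05). ATF5 shares 626 exonic bases (21.2% of its exonic length) with NUP62 on the opposite strand and 75 with IL4I1, an amino acid oxidase gene, and the strand setting of the counting is not given in the sources used here. NUP62 changed by 0.14 and 0.17 (log2), not past the threshold, and IL4I1 rose by 0.53 and 0.50. How far reads of these genes enter the count of ATF5 was not tested. DDIT3 likewise shares 355 bases (28.0% of its exonic length) with MARS, which was not called. CEBPG, a C/EBP partner of ATF4, fell with log2 changes of -0.30 and -0.28, and CEBPB changed by -0.11 and -0.065, not past the threshold.

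Of the 5 stress and redox targets, CHAC1 and SESN2 fell with both circRNAs in PC3. CHAC1 (chromosome 15, 40952962 to 40956519, plus strand), which breaks down glutathione, stood at 10.3 and 10.8 CPM in the PC3 controls, 6.32 CPM with circ0003553 and 6.52 CPM with circ0004592. The levels with the circRNAs were nearly alike and below both controls, with -0.73 ± 0.15 (log2, SE; edgeR adjusted p = 4.34e-04) and -0.69 ± 0.15 (log2, SE; edgeR adjusted p = 8.47e-04). SESN2 (chromosome 1, 28259527 to 28282491, plus strand), a leucine sensor that restrains mTORC1, stood at 51.1 and 51.7 CPM in the PC3 controls, 42.1 CPM with circ0003553 and 41.7 CPM with circ0004592. Its changes were -0.29 ± 0.077 (log2, SE; edgeR adjusted p = 0.00630) and -0.30 ± 0.077 (log2, SE; edgeR adjusted p = 0.00466). VLDLR (chromosome 9, 2621834 to 2660053, plus strand) was scarce in PC3, at 2.45 and 2.12 CPM in the PC3 controls, 1.33 CPM with circ0003553 and 1.53 CPM with circ0004592. Its counts there were 87 and 76 in the controls, 44 with circ0003553 and 51 with circ0004592, and it fell with circ0003553, at -0.78 ± 0.24 (log2, SE; edgeR adjusted p = 0.0152). Its change with circ0004592, -0.57, had an adjusted p of 0.0674. VLDLR was not called with circ0003553 by DESeq2 or by limma on RPKM. STC2, a secreted glycoprotein, changed by -0.076 and -0.050, not past the threshold.

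DDIT4 (chromosome 10, 72273920 to 72276036, plus strand, also called REDD1) was not lower in PC3. It stood at 41.4 and 41.3 CPM in the PC3 controls, 44.1 CPM with circ0003553 and 53.3 CPM with circ0004592. The circ0004592 library was above both controls, a rise of 0.37 ± 0.069 (log2, SE; edgeR adjusted p = 2.45e-04), and with circ0003553 the change was 0.094 (adjusted p = 0.353). DDIT4 shares 847 bases (41.2% of its exonic length) with the noncoding gene RP11-442H21.2 on the opposite strand. That gene, at a mean of 67.7 CPM over the libraries, changed by 0.14 and 0.42 (log2) with the same circRNAs, close to DDIT4. Without the strand setting, reads of the pair cannot be told apart.

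Among the amino acid and folate enzymes, 7 of 9 fell with circ0003553 and 4 of 9 with circ0004592 in PC3, and none rose, where 14.5% and 13.5% of all tested genes were called lower. CTH (chromosome 1, 70411218 to 70439851, plus strand), which makes cysteine from cystathionine, stood at 7.34 and 8.20 CPM in the PC3 controls, 4.11 CPM with circ0003553 and 4.36 CPM with circ0004592. Both libraries were below both controls, with -0.92 ± 0.18 (log2, SE; edgeR adjusted p = 3.30e-04) and -0.83 ± 0.18 (log2, SE; edgeR adjusted p = 8.62e-04), the largest change of a member with each circRNA. CBS (chromosome 21, 43053191 to 43076943, minus strand), the enzyme before CTH, stood at 12.5 and 11.4 CPM in the PC3 controls, 7.32 CPM with circ0003553 and 10.3 CPM with circ0004592. It fell with circ0003553, at -0.71 ± 0.12 (log2, SE; edgeR adjusted p = 7.73e-05), and its change with circ0004592 was -0.21 (adjusted p = 0.181). CBS has a near-identical copy, CBSL, counted at nearly the same levels, 12.8 and 11.01 CPM in the PC3 controls, 7.32 CPM with circ0003553 and 8.11 CPM with circ0004592, with -0.70 and -0.55 (adjusted p = 1.29e-04 and 0.00137). Reads of the copies may be split between them, so the value of CBS alone is uncertain.

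The serine enzymes had smaller log2 changes than CTH. PSAT1 (chromosome 9, 78297143 to 78330093, plus strand), a transaminase, stood at 56.7 and 55.2 CPM in the PC3 controls, 41.8 CPM with circ0003553 and 43.5 CPM with circ0004592. PSPH (chromosome 7, 56011051 to 56051604, minus strand), which takes the last step to serine, stood at 37.4 and 38.4 CPM in the PC3 controls, 29.3 CPM with circ0003553 and 30.5 CPM with circ0004592. SHMT2 (chromosome 12, 57229327 to 57234935, plus strand), which passes the serine carbon to folate in mitochondria, stood at 165 and 159 CPM in the PC3 controls, 129 CPM with circ0003553 and 134 CPM with circ0004592. In each of these, both circRNA libraries were below both controls. All 3 fell with each circRNA. The log2 changes were -0.42 ± 0.068 and -0.36 ± 0.068 for PSAT1, -0.37 ± 0.085 and -0.31 ± 0.085 for PSPH, and -0.33 ± 0.061 and -0.27 ± 0.060 for SHMT2 (SE). PHGDH, which starts serine synthesis, and MTHFD2, the next folate enzyme, fell with circ0003553, with log2 changes of -0.15 and -0.16, and their changes with circ0004592 were -0.079 and -0.074, not past the threshold.

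ASNS (chromosome 7, 97852118 to 97872542, minus strand), asparagine synthetase and a standard marker of ATF4 activity, stood at 71.9 and 67.4 CPM in the PC3 controls, 71.3 CPM with circ0003553 and 70.4 CPM with circ0004592. The circRNA libraries lay within the range of the controls, with log2 changes of 0.034 ± 0.069 and 0.016 ± 0.069 (SE; edgeR adjusted p = 0.761 and 0.912). ALDH1L2, at 4.10 and 3.01 CPM in the PC3 controls, 3.81 CPM with circ0003553 and 3.66 CPM with circ0004592, was not called, and its controls were the farthest apart of all members.

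Of the transporter genes, SLC7A1 and SLC7A5 fell with circ0003553 in PC3 and none was called with circ0004592. SLC7A1 (chromosome 13, 29509410 to 29595688, minus strand), the arginine and lysine carrier, stood at 22.7 and 21.7 CPM in the PC3 controls, 17.7 CPM with circ0003553 and 19.6 CPM with circ0004592. Its change was -0.33 ± 0.091 (log2, SE; edgeR adjusted p = 0.00802) and -0.18 (adjusted p = 0.145). SLC7A5, the leucine carrier, changed by -0.27 (adjusted p = 0.00126) and -0.16 (adjusted p = 0.0535), while its partner chain SLC3A2 changed by -0.018 and 0.020. SLC38A2 changed by 0.054 and 0.11, not past the threshold.

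The 12 synthetases split. AARS, EPRS, GARS, IARS and SARS, which charge alanine, glutamate and proline, glycine, isoleucine and serine, fell with each circRNA, and TARS, for threonine, rose. AARS (chromosome 16, 70252295 to 70289543, minus strand) stood at 440.0 and 425 CPM in the PC3 controls, 334 CPM with circ0003553 and 356 CPM with circ0004592, with -0.37 ± 0.055 (log2, SE; edgeR adjusted p = 9.68e-06) and -0.28 ± 0.054 (log2, SE; edgeR adjusted p = 3.69e-04). The falls of the other 4 lay between -0.30 and -0.24 over both circRNAs. TARS rose by 0.17 and 0.18 (adjusted p = 0.0224 and 0.0192). CARS, LARS, MARS, NARS, VARS and YARS were not called with either, with changes from -0.14 to 0.15. Against the own control, the log2 differences of these 5 ran from -0.40 (AARS, circ0003553) to -0.24 (GARS, circ0004592).

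Genes that fell in PC3 were found both with and without the promoter core. With circ0003553, 6 of the 12 members with the core fell, 1 rose and 5 were not called, and of the 18 with a window and no core 13 fell, 1 rose and 4 were not called. With circ0004592 the counts were 5 lower, 1 higher and 6 not called of 12, and 7, 2 and 9 of 18. Of all tested genes, 14.5% were called lower and 14.3% higher with circ0003553, and 13.5% and 12.3% with circ0004592. No difference between members with and without the core was tested.

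**Figure D3:**
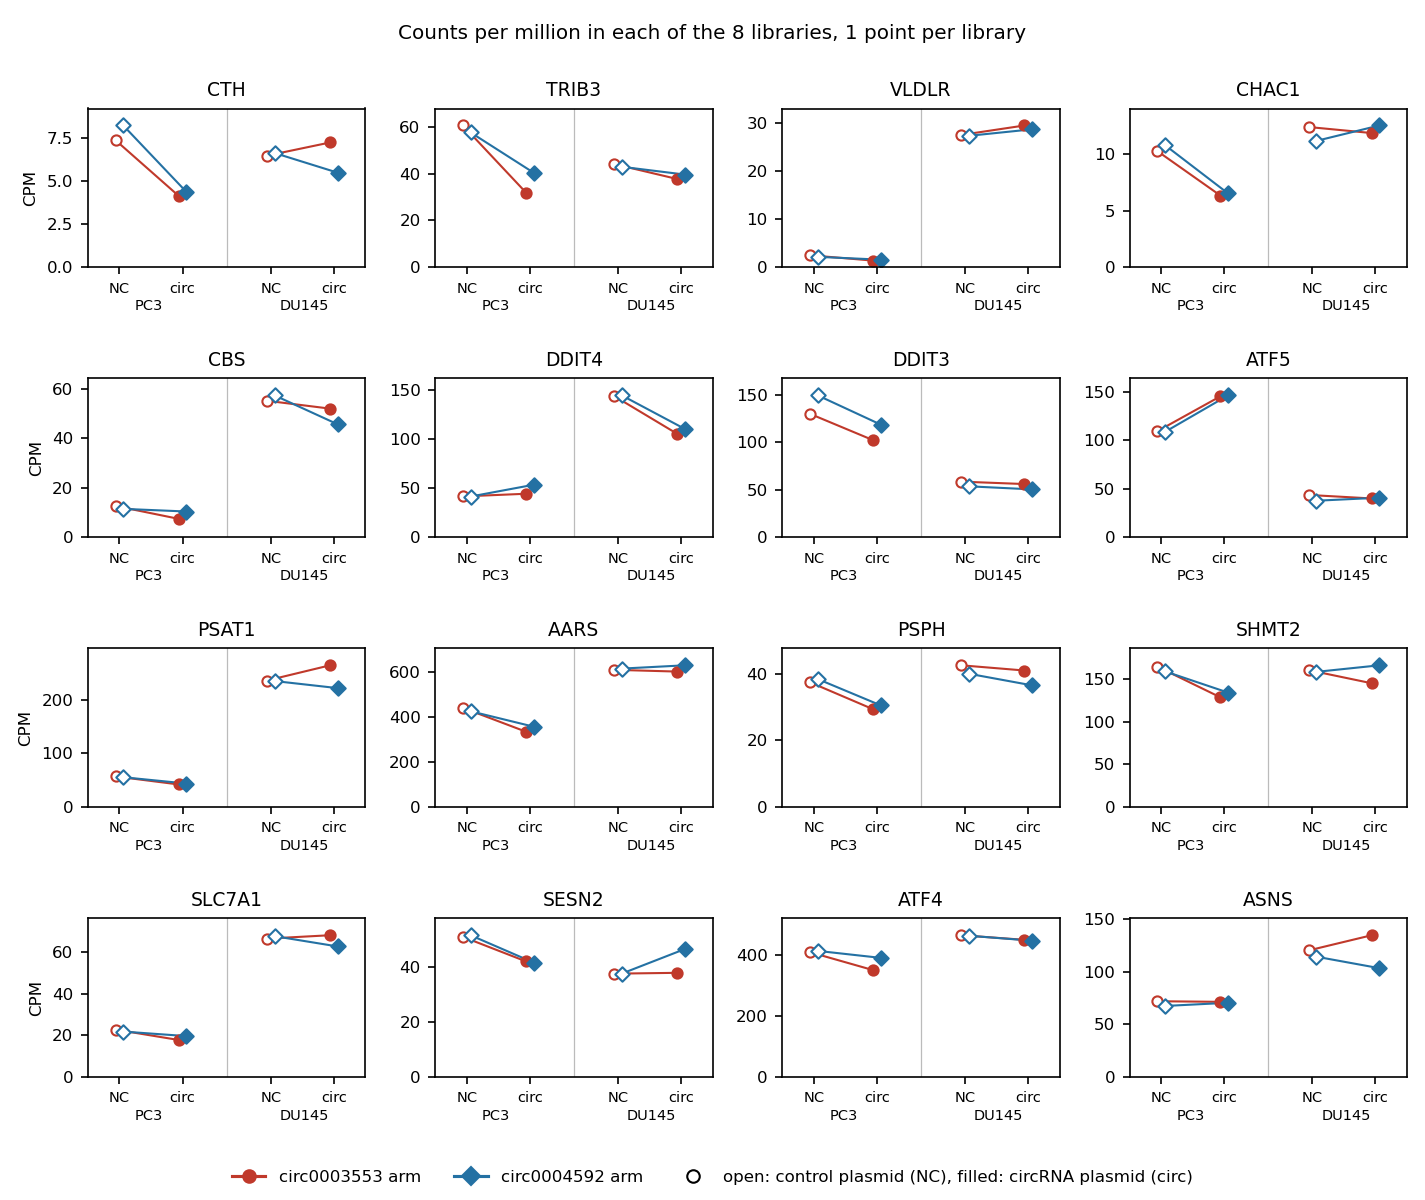
CPM (y axis, from 0) of 16 members in each of the 8 libraries, 1 point per library, open for control plasmid (NC) and filled for circRNA plasmid (circ), with lines that join the libraries of an arm, PC3 at the left of each panel and DU145 at the right. In PC3 the filled points of TRIB3, CHAC1, CTH, PSAT1, PSPH, SHMT2, AARS and SESN2 lie below both open points, those of ATF5 lie above, and those of ASNS lie level with them. DDIT4 is lower with both circRNAs in DU145.

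All within-line tests rest on the spread between the 2 controls of each line, and each lone circRNA library was taken to vary like them. In a fit that sets both circRNA libraries of PC3 against both controls, so that the spread between circRNA libraries counts as error, 15 members were lower and 1 higher, beside 10.5% and 10.2% of all tested genes. TRIB3 was -0.71 ± 0.10 (log2, SE; edgeR adjusted p = 5.62e-05), CHAC1 -0.71 ± 0.13 (log2, SE; edgeR adjusted p = 4.91e-04), CTH -0.87 ± 0.16 (log2, SE; edgeR adjusted p = 8.61e-04) and ATF5, the gene that rose, 0.42 ± 0.083 (log2, SE; edgeR adjusted p = 0.00137). Without any 1 of the PC3 libraries, fewer members were called in this fit, and fewer of all tested genes as well. Each such fit leaves 1 library in a group.

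In DU145 with circ0003553, 2 of 36 members were higher and 2 lower, beside 4.62% and 6.27% of all tested genes. With circ0004592, 3 were higher and 6 lower, beside 5.93% and 4.51%. DDIT4 was the member called in the same direction with both, and SLC38A2 was called in opposite directions. The median log2 change was -0.0054 and -0.095, with 0 for all tested genes. Against the own control, 13 members were lower with both circRNAs, 5 higher with both and 18 opposite, of which 12 were higher with circ0003553 and lower with circ0004592. Over all tested genes, 24.7% were lower with both, 25.9% higher with both and 47.9% opposite. The calls in DU145 depended on the test and on single controls. Limma on RPKM called 0 members and 0 genes for circ0003553 and again for circ0004592. Without either control, fewer members were called for circ0003553 and for circ0004592, and the fewest for circ0004592 without the control of its own arm. Fewer of all tested genes were called in these fits as well, each of which leaves 1 control.

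DDIT4 was the member that moved most in DU145. It stood at 144 and 145 CPM in the DU145 controls, 105 CPM with circ0003553 and 110.4 CPM with circ0004592. The controls were nearly level and both circRNA libraries were below them, with -0.45 ± 0.062 (log2, SE; edgeR adjusted p = 4.21e-05) and -0.39 ± 0.063 (log2, SE; edgeR adjusted p = 2.98e-04). The opposite-strand gene RP11-442H21.2 also fell, with log2 changes of -0.44 and -0.38. DDIT4 was also the single member called when both circRNA libraries of DU145 were set against both controls, at -0.42 ± 0.088 (log2, SE; edgeR adjusted p = 0.0296), where 0.464% of all tested genes were called lower and 0.543% higher. Without either control library no member was called in that fit.

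In DU145, TRIB3, CHAC1 and CTH, which fell furthest in PC3 beside VLDLR, were not called. TRIB3 was at 44.1 and 43.0 CPM in the DU145 controls, 37.7 CPM with circ0003553 and 39.6 CPM with circ0004592, with changes of -0.21 and -0.14 (edgeR adjusted p = 0.0801 and 0.300). CHAC1 was at 12.4 and 11.2 CPM in the DU145 controls, 11.9 CPM with circ0003553 and 12.5 CPM with circ0004592, with the circRNA libraries inside or just above the range of the controls. CTH, at 6.45 and 6.60 CPM in the DU145 controls, 7.21 CPM with circ0003553 and 5.47 CPM with circ0004592, lay above both controls with circ0003553 and below both with circ0004592, and neither change passed the threshold. ATF4 was at 465 and 463 CPM in the DU145 controls, 449.6 CPM with circ0003553 and 447 CPM with circ0004592, ATF5 at 43.4 and 37.4 CPM in the DU145 controls, 39.8 CPM with circ0003553 and 40.6 CPM with circ0004592, and DDIT3 at 58.4 and 53.4 CPM in the DU145 controls, 55.8 CPM with circ0003553 and 50.2 CPM with circ0004592. ATF4, ATF5 and DDIT3 were not called here.

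Of the 10 other members called in DU145, 6 were enzymes or transporter genes and 4 were SESN2, STC2, CEBPG and VARS. ASNS, at 120.3 and 114 CPM in the DU145 controls, 135 CPM with circ0003553 and 103 CPM with circ0004592, rose with circ0003553 by 0.20 ± 0.063 (log2, SE; edgeR adjusted p = 0.0429), and its change with circ0004592 was -0.18 (adjusted p = 0.0808). SLC38A2 rose with circ0003553 (0.23, adjusted p = 0.0141) and fell with circ0004592 (-0.27, adjusted p = 0.00603), and SLC7A5 fell with circ0003553 (-0.23). With circ0004592, SESN2, at 37.7 and 37.7 CPM in the DU145 controls, 38.0 CPM with circ0003553 and 46.6 CPM with circ0004592, rose by 0.31 ± 0.076 (log2, SE; edgeR adjusted p = 0.0101), the opposite of its direction in PC3. PHGDH and VARS rose by 0.21 and 0.28. CBS, at 55.2 and 57.4 CPM in the DU145 controls, 52.0 CPM with circ0003553 and 45.7 CPM with circ0004592, fell, at -0.30 ± 0.084 (log2, SE; edgeR adjusted p = 0.0227), and STC2, MTHFD2 and CEBPG fell with log2 changes of -0.30, -0.26 and -0.22.

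For the remaining named genes, levels in DU145 were as follows. PSAT1 stood at 236 and 235 CPM in the DU145 controls, 264 CPM with circ0003553 and 221 CPM with circ0004592, above both controls with circ0003553 and below both with circ0004592. PSPH stood at 42.5 and 40.0 CPM in the DU145 controls, 41.0 CPM with circ0003553 and 36.5 CPM with circ0004592. SHMT2 stood at 161 and 159 CPM in the DU145 controls, 145 CPM with circ0003553 and 166 CPM with circ0004592, below both controls with circ0003553 and above both with circ0004592. AARS was at 609 and 614 CPM in the DU145 controls, 601 CPM with circ0003553 and 629 CPM with circ0004592, within a narrow range. SLC7A1 was at 66.4 and 67.6 CPM in the DU145 controls, 68.0 CPM with circ0003553 and 62.6 CPM with circ0004592, and VLDLR was at 27.5 and 27.3 CPM in the DU145 controls, 29.5 CPM with circ0003553 and 28.7 CPM with circ0004592. None of the changes of these 6 genes in DU145 passed the threshold.

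In DU145 the difference between the circRNA libraries moved with the GC content of the genes, which ran from 38.1% (SLC38A2) to 66.2% (CEBPB) among the members. Over the 14775 tested genes with a GC value, Spearman's rho between GC content and the difference of circ0003553 and circ0004592 libraries was -0.48, and over the 36 members -0.79. In PC3 the values were -0.029 and -0.23. Against the own control in DU145, rho over the members was -0.70 for circ0003553 and 0.53 for circ0004592, and in PC3 -0.045 and 0.018. These correlations run across genes of the same libraries, which share depth and preparation, and are a description.

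**Figure D4:**
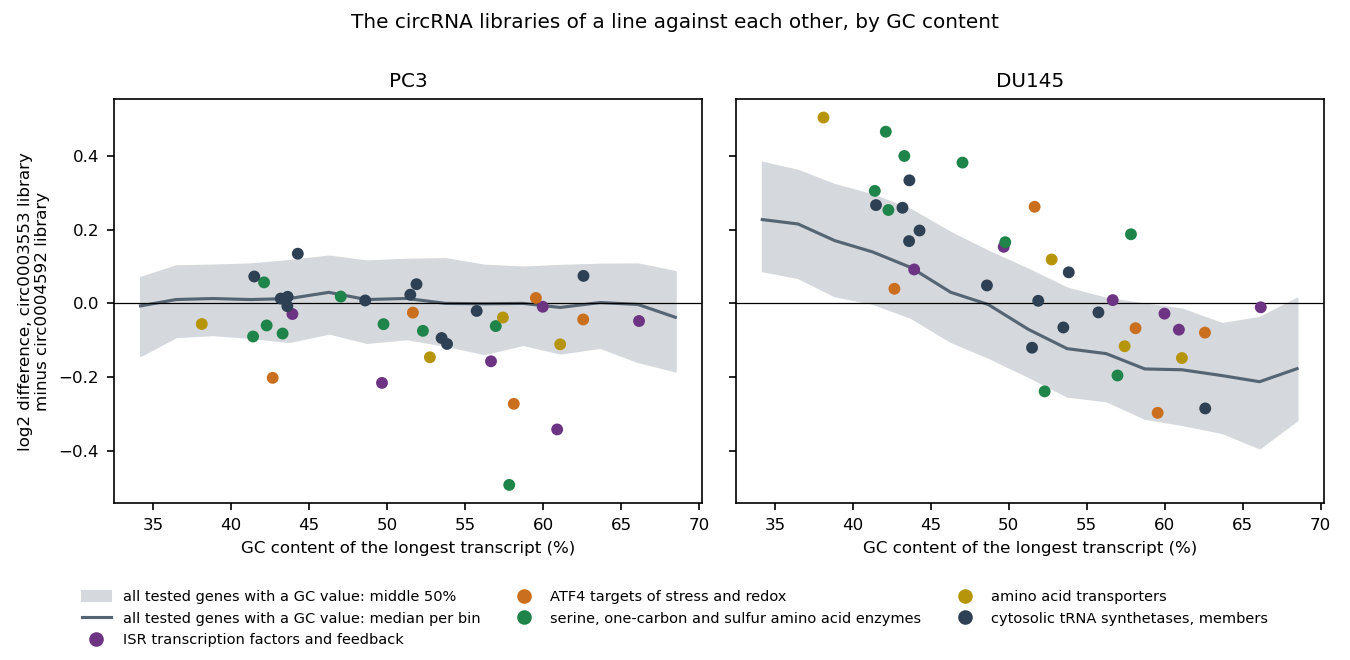
Log2 difference between the circ0003553 and circ0004592 libraries of a line (y axis) against the GC content of the gene's longest transcript in percent (x axis), 1 point per member, with the median and the middle 50% of all tested genes with a GC value in bins. In DU145 members and all genes run downward together, from above 0 at low GC content to below 0 at high GC content, and in PC3 the bins are flat.

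Set directly against each other in DU145, the circRNA libraries differed in 13 members, 10 higher with circ0003553 and 3 lower, beside 5.53% and 8.39% of all tested genes. The largest were SLC38A2 (0.50), ALDH1L2 (0.47) and ASNS (0.38) on the higher side, and SESN2 (-0.30), VARS (-0.29) and PHGDH (-0.24) on the lower. With a GC offset per library, 5 members were called, all higher, and 4 of them were among the 13, beside 2.37% and 5.18% of the 14775 genes called higher and lower. The offset left a GC trend among the members, with a rho of -0.32 (-0.041 over all 14775 genes). SLC38A2 then differed by 0.34 (adjusted p = 0.00139), ASNS by 0.36 (adjusted p = 0.00155) and SESN2 by -0.13 (adjusted p = 0.409). Under the offset DDIT4 was again called lower in DU145 with each circRNA, at -0.36 and -0.45, and TRIB3 in PC3 was at -0.85 and -0.52. In PC3 no member was called between the circRNA libraries (edgeR), beside 0.028% and 0.0839% of all tested genes. There, 5 members had an unadjusted edgeR p under 0.05, beside 1496 of the 17877 tested genes. They were TRIB3 (-0.34 ± 0.093, edgeR adjusted p = 0.227), CBS (-0.49 ± 0.14), DDIT4, ATF4 and DDIT3, all lower with circ0003553. DESeq2 called 0 members.

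The change with a circRNA differed between the lines in many members when the difference was tested. A negative value means that the log2 change was lower in PC3 than in DU145. For circ0003553, 13 members were lower and 2 higher, beside 10.5% and 12.1% of all tested genes. For circ0004592, 9 were lower and 5 higher, beside 10.5% and 9.79%. TRIB3 was -0.68 ± 0.11 (log2, SE; edgeR adjusted p = 4.89e-05) and -0.41 ± 0.11 (log2, SE; edgeR adjusted p = 0.00846), and CHAC1 -0.74 ± 0.19 (log2, SE; edgeR adjusted p = 0.00617) and -0.78 ± 0.19 (log2, SE; edgeR adjusted p = 0.00534). CTH was -1.06 ± 0.24 (log2, SE; edgeR adjusted p = 0.00172) for circ0003553 and -0.58 (adjusted p = 0.103) for circ0004592. ATF5 went the other way, 0.44 and 0.42, and had risen in PC3 while its changes in DU145 were -0.026 and 0.0017. DDIT4 had the smallest adjusted p for circ0004592, 0.75 ± 0.093 (log2, SE; edgeR adjusted p = 1.53e-06), with a rise in PC3 and a fall in DU145. Of the synthetases, AARS differed for both circRNAs (-0.35 and -0.32). EPRS and IARS were past the threshold for circ0003553, and SARS, TARS and VARS for circ0004592. DESeq2 called 8 members for circ0003553 and 9 for circ0004592 in this test, beside 2016 and 1807 of all genes. Limma on RPKM called 7 and 4 members, beside 1961 and 1619 of the 17877 genes.

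Over both lines together, where every circRNA library is paired with its arm's control, no member was called by edgeR for circ0003553, circ0004592 or their difference, and 0% of all tested genes were called in either direction in each. At an unadjusted p under 0.05 there was 1 member for circ0003553 (TRIB3, -0.58 ± 0.20, edgeR adjusted p = 0.973), 0 for circ0004592 and 0 for their difference. Of the 17877 tested genes, 519, 542 and 50 were under 0.05 unadjusted, in the same order. DESeq2 called no member either. In this fit a change that differs between the lines counts as error.

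Upstream of ATF4, the kinase genes moved unevenly in PC3. EIF2AK2, which encodes PKR, the sensor of double-stranded RNA, stood at 68.5 and 67.4 CPM in the PC3 controls, 395 CPM with circ0003553 and 364 CPM with circ0004592. It rose by 2.54 ± 0.057 (log2, SE; edgeR adjusted p = 2.25e-21) and 2.42 ± 0.057 (log2, SE; edgeR adjusted p = 6.44e-21), and in DU145, at 107 and 109.7 CPM in the DU145 controls, 119 CPM with circ0003553 and 111 CPM with circ0004592, it changed by 0.14 and 0.033, not past the threshold. EIF2AK3 (PERK), the kinase of the endoplasmic reticulum, fell with each circRNA in PC3, from 37.9 and 40.6 CPM in the controls to 30.01 and 31.9 CPM. Of the 6 genes listed as kinases with their partners, 3 rose and 1 fell with circ0003553, beside 14.3% and 14.5% of all tested genes. With circ0004592, 1 rose and 1 fell, beside 12.3% and 13.5%. In DU145, IMPACT, a brake on GCN2, rose with circ0003553 (0.34), and GCN1, an activating partner of GCN2, with circ0004592 (0.30). These are levels of messenger RNA, and phosphorylation was not measured. Of 14 genes of eIF2, eIF2B and the eIF2 phosphatase, 2 rose and 2 fell with circ0003553 in PC3, and 1 fell with circ0004592. The counts of these 14 genes are near or below the shares of all tested genes. Those were 14.3% higher and 14.5% lower with circ0003553, and 12.3% and 13.5% with circ0004592.

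Other targets and partners of ATF4 stood outside the 36. In PC3, where 14.5% and 13.5% of all tested genes were called lower and 14.3% and 12.3% higher with circ0003553 and circ0004592, of 27 tested genes 13 fell and 4 rose with circ0003553, and 14 fell and 2 rose with circ0004592, with median log2 changes of -0.29 and -0.26. In DU145, 2 fell and 6 rose with circ0003553, beside 6.27% and 4.62% of all tested genes, and 2 fell and 3 rose with circ0004592, beside 4.51% and 5.93%. GDF15, a secreted stress cytokine, stood at 46.0 and 45.8 CPM in the PC3 controls, 21.9 CPM with circ0003553 and 27.2 CPM with circ0004592, with -1.07 ± 0.11 (log2, SE; edgeR adjusted p = 2.43e-08) and -0.76 ± 0.10 (log2, SE; edgeR adjusted p = 3.92e-06). PYCR1, of proline synthesis, stood at 109 and 105 CPM in the PC3 controls, 57.4 CPM with circ0003553 and 64.3 CPM with circ0004592, with -0.90 ± 0.068 and -0.73 ± 0.067. SLC1A4, a carrier of serine and alanine, stood at 17.8 and 15.0 CPM in the PC3 controls, 9.32 CPM with circ0003553 and 11.1 CPM with circ0004592. ATF3, a stress factor also driven by other pathways, rose instead, from 9.64 and 9.73 CPM in the PC3 controls to 21.2 and 19.5 CPM, and in DU145 from 21.4 and 21.7 to 28.2 and 34.4 CPM (adjusted p = 0.00733 and 5.44e-05).

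Among 12 cytosolic synthetase and complex genes outside the members, 4 rose and 2 fell with circ0003553 in PC3, and 3 rose and 1 fell with circ0004592. Over all tested genes, 14.3% and 14.5% were called higher and lower with circ0003553, and 12.3% and 13.5% with circ0004592. The falls are near that share and the rises above it. WARS, which charges tryptophan and is known as an interferon-induced gene, stood at 94.2 and 92.8 CPM in the PC3 controls, 169 CPM with circ0003553 and 178 CPM with circ0004592. In DU145 it stood at 121 and 123 CPM in the DU145 controls, 158 CPM with circ0003553 and 150.4 CPM with circ0004592, and it rose in all 4 tests, from 0.30 in DU145 with circ0004592 to 0.93 in PC3 with circ0004592. FARSA, a phenylalanine synthetase subunit, rose by 0.34 with circ0003553 in PC3. The genes of the complex proteins EEF1E1 and AIMP2 each fell in 1 test there, EEF1E1 with circ0003553 (-0.41) and AIMP2 with circ0004592 (-0.35).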

How the data were processed

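The deposited tables of the authors hold unnormalised counts and, separately, RPKM, with 1 pair of tables per arm. Per the submitters' processing notes, Trimmomatic 0.36, featureCounts of Subread 1.5.1, edgeR 3.12.1 and hg38 were used; per the labels' protocols, ribosomal RNA was depleted and a stranded kit with an 8-base molecular identifier was used, with pairs of 150 bases. The aligner, annotation, strand setting and handling of identifiers are not given in the sources used here. The deposited RPKM equal the counts divided by gene length and column total.

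Genes missing from 1 table (5511, at most 14 counts) were set to 0 there. Genes with at least 1 CPM in 2 libraries were tested with edgeR 4.0.16 (TMM, quasi-likelihood, Benjamini-Hochberg over 17877 genes, threshold 0.05) in R 4.3.3. CPM are scaled to the TMM library size. The within-line tests, the line differences and the controls used 6 groups of line and insert (2 residual degrees of freedom). Either circRNA used 4 groups (4 degrees of freedom), and the tests over both lines a block per line and arm (2). The SE was derived from the log2 change and the F statistic. Own-control differences (prior count 2) were not tested. The comparisons between circRNA libraries within a line and the GC offset (a loess curve per library on the GC content of the longest GENCODE v29 transcript, 14775 genes) were added after the data were seen. Fits were tested on simulated data. Alternatives were DESeq2 1.42.0, limma 3.58.1 on log2 of RPKM plus 0.1, other filters, raw library totals, the own control alone, a block and leaving out libraries.

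Members and gene lists were chosen with earlier results of these data known. Values in every library are given for ATF4, DDIT3, TRIB3 and ASNS, and for the 14 members with the largest change within a line. Of each pathway list up to 4 called genes are named, by size of change, with EIF2AK2 in any case. Promoters and their sequences are from RefSeq, GRCh38.p14, and gene positions from the deposited tables. Of the pathway lists, NARS2 stands in 2.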

Additional observations from a re-analysis of the deposited data

Results flagged for a closer look

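The test of the difference between the lines picked out 15 members for circ0003553 and 14 for circ0004592, given here as the log2 change in PC3 minus that in DU145. Over all tested genes, 12.1% were called higher and 10.5% lower for circ0003553, and 9.79% and 10.5% for circ0004592. For circ0003553 the change was lower in PC3 in DDIT3 (-0.45), TRIB3 (-0.68), CHAC1 (-0.74), SESN2 (-0.30), VLDLR (-0.88), PSAT1 (-0.59), PSPH (-0.36), CTH (-1.06), CBS (-0.59), SLC7A1 (-0.35), AARS (-0.35), EPRS (-0.35) and IARS (-0.42). It was higher in PC3 in ATF5 (0.44) and DDIT4 (0.55). For circ0004592 it was lower in PC3 in TRIB3 (-0.41), CHAC1 (-0.78), SESN2 (-0.61), PSAT1 (-0.28), PHGDH (-0.29), SHMT2 (-0.33), AARS (-0.32), SARS (-0.27) and VARS (-0.42). It was higher in PC3 in ATF5 (0.42), DDIT4 (0.75), STC2 (0.24), SLC38A2 (0.39) and TARS (0.22). ATF5, TRIB3, DDIT4, CHAC1, SESN2, PSAT1 and AARS stood in the lists of both circRNAs, which share the controls of each line. GC content moved with the DU145 differences, and its part in these values was not tested. With a GC offset per library, 19 members were called for circ0003553, among them all 15, and 15 for circ0004592, of which 12 were among the 14. Under the offset 12.4% and 14.5% of all genes with a GC value were called higher and lower for circ0003553, and 9.2% and 13.8% for circ0004592. DESeq2 called 8 and 9, all of them among those listed, beside 2016 and 1807 of all genes. No group had enough libraries for a check of single libraries that stand apart.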

How the results depend on the processing

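Calls among the 36 members were recomputed with DESeq2 size factors, DESeq2, no filter, a filter of 5 CPM, limma on log2 RPKM, a GC offset (chosen after seeing the data) and each library left out in turn, and none of the calls changed direction in these. In PC3 the members called stayed between 17 and 23 for circ0003553 and between 13 and 18 for circ0004592. Limma on RPKM called 0 in DU145 for circ0003553, for circ0004592, for either circRNA and between the circRNA libraries, where it called 0 of all genes in each but 8 genes for either circRNA. It called 7 and 4 for the line differences of circ0003553 and circ0004592, and DESeq2 8 and 9. Between the circRNA libraries of DU145 the GC offset left 5. Leaving out libraries gave 1 member for circ0003553 in DU145 (either control), 3 to 6 for circ0004592 in DU145, 5 to 9 for either circRNA in PC3 and 0 to 7 for either circRNA in DU145. The lowest count for circ0004592 in DU145 came without the control of that arm. Without DU145 circ0003553 7 members were called with either circRNA in DU145, and without DU145 circ0004592 3. The block of line and arm (paired libraries, a pairing by arm rather than by number) gave 14 for either circRNA in PC3 and 1 in DU145. For the 30 values of named members with a call, DESeq2 kept 19 past the threshold and limma on RPKM 21. Motif matches in the 250 bases before the start alone were found in 6 of 30 members, beside 3.14% of windows. Over all genes, DESeq2 called 2565 where edgeR called 5152 for circ0003553 in PC3, 2266 against 4597 for circ0004592 in PC3, 820 against 1947 and 835 against 1866 in DU145, 2016 against 4047 and 1807 against 3621 for the line differences, 282 against 180 for either circRNA in DU145 and 1219 against 2488 between the circRNA libraries of DU145. Limma on RPKM called 3305 and 2641 genes in PC3 and 1961 and 1619 for the line differences. Leaving out a control gave 782 and 818 genes for circ0003553 and 1007 and 533 for circ0004592 in DU145, leaving out 1 library gave 1838 to 2155 for either circRNA in PC3 against 3693, and 8 to 1431 in DU145 against 180, where no filter gave 377 and the GC offset 393. Between the circRNA libraries of PC3 the counts of genes ran from 0 to 95, against 20. The GC offset called 1116 genes between the circRNA libraries of DU145. The causes of these differences were not tested. Counts were lowest for VLDLR and ALDH1L2 in PC3, which limits their precision.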

Other observations

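Genes of the other branches of the unfolded protein response are read against the shares of all tested genes called in PC3. Those were 14.3% higher and 14.5% lower with circ0003553, and 12.3% and 13.5% with circ0004592. The list of 20 genes held IRE1 and ATF6 targets and the genes of IRE1 and ATF6 themselves (ERN1 and ATF6), which were not called in either line. Of the 20, 2 rose and 4 fell with circ0003553, and 4 rose and 3 fell with circ0004592. The rises with circ0004592 are above the share of all tested genes, and the other counts lie closer to it. XBP1, the factor spliced by IRE1, stood at 153 and 146 CPM in the PC3 controls, 278 CPM with circ0003553 and 245 CPM with circ0004592, with rises of 0.89 ± 0.059 (log2, SE; edgeR adjusted p = 1.12e-11) and 0.71 ± 0.059 (log2, SE; edgeR adjusted p = 1.18e-09). HSPA5 (BiP), the main chaperone of the endoplasmic reticulum, stood at 711 and 733 CPM in the PC3 controls, 575 CPM with circ0003553 and 647 CPM with circ0004592, and fell, with log2 changes of -0.33 and -0.16. EDEM1, which sends misfolded proteins to degradation, fell with log2 changes of -0.48 and -0.48, and DNAJC3, an inhibitor of eIF2 kinases, fell with circ0003553 (-0.35). In DU145, 5 of the 20 fell with circ0003553 and 1 with circ0004592, and none rose. Over all tested genes there, 6.27% and 4.51% were called lower with these circRNAs, and 4.62% and 5.93% higher. The falls with circ0003553 in DU145 are above that share.

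The counts of mitochondrial tRNA synthetases called in PC3 are read against the same shares of all tested genes. Of 17 genes, 4 rose and 2 fell with circ0003553 in PC3, and 2 rose and 3 fell with circ0004592. The rises with circ0003553 are above the share of all tested genes, and the other counts lie closer to it. RARS2 (arginine) stood at 26.6 and 27.4 CPM in the PC3 controls, 21.0 CPM with circ0003553 and 18.1 CPM with circ0004592, and NARS2 (asparagine) at 14.5 and 14.8 CPM in the PC3 controls, 12.4 CPM with circ0003553 and 10.6 CPM with circ0004592. AARS2 (alanine) went the opposite way to cytosolic AARS, at 22.5 and 20.1 CPM in the PC3 controls, 30.01 CPM with circ0003553 and 27.2 CPM with circ0004592, with 0.49 ± 0.095 (log2, SE; edgeR adjusted p = 2.81e-04). TARS2 (threonine) rose as TARS did, by 0.37 with circ0004592. In DU145, 0 of 17 were called with circ0003553 by edgeR, and 3 rose with circ0004592. With circ0003553, 2 of them had an unadjusted p under 0.05, beside 4413 of the 17877 tested genes. Of all tested genes there, 4.62% and 6.27% were called higher and lower with circ0003553, and 5.93% and 4.51% with circ0004592. The rises with circ0004592 in DU145 are above that share. Of the genes of eIF2 and its phosphatase, PPP1CA fell in PC3 (-0.37 with circ0003553). EIF2B2 fell in DU145 with circ0003553 (-0.32), EIF2S2 fell there with circ0004592 (-0.31), and PPP1R15A (GADD34), a feedback target of the pathway, rose there with circ0004592 (0.31).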
